A study of Mus musculus with 9 samples.

Results

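Eif1ad is a mouse gene for a small protein with a domain related to the translation initiation factor eIF1A, and the mouse genome also carries a set of numbered, multi-copy relatives of it. All rows of the deposited expression table whose symbol is Eif1ad followed by a number were taken, which gave 8 genes of 19359: Eif1ad2, Eif1ad3, Eif1ad4, Eif1ad6, Eif1ad7, Eif1ad8, Eif1ad16 and Eif1ad19. Eif1ad itself, the single-copy gene, served for comparison. Numbered copies with no row in that table were not analysed here. All 8 copies passed the filter on low values described below.

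RNA was measured in whole mouse embryos taken 34 h after fertilization, 3 embryos to a pool and 1 library to a pool. In LPN, pronuclei were transferred at the later of both times studied. In EPN they were transferred early, and SPN embryos had a sham transfer and were the control. The labels describe B6D2F1 females of 8 to 12 weeks, given PMSG, followed by hCG where mature eggs were collected, and say that cytoplasts with abnormal parameters were prepared by selective enucleation of immature oocytes. They do not say which of these cells went into which group, who the sires were, or whether the 3 libraries of a group came from different days or matings, so p-values describe spread among the libraries alone, and that spread may be technical. In pools of whole embryos, less RNA per cell and fewer cells at a given stage cannot be told apart.

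The early mouse embryo starts to transcribe its own genome in a first, minor wave at the end of the 1-cell stage and in a major wave during the 2-cell stage. Multi-copy families such as Zscan4, Tcstv, Usp17l, Tdpoz and the Eif1a-like copies are known as transcripts of this window, and the same families mark the rare 2-cell-like state of mouse embryonic stem cells. eIF1A, encoded by Eif1a and Eif1ax, binds the small ribosomal subunit together with eIF1 and helps it scan to the start codon. Whether the proteins of the Eif1ad copies act in translation is not addressed by RNA levels.

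Values are CPM, the reads of a gene scaled by the total reads of its library. CPM are not scaled by gene length, so values of one copy were compared between libraries, and the split between copies is given only as a split of reads. Reads of near-identical copies can map to several of them, and the sources used here do not say how the authors assigned such reads. The division of reads among the copies is therefore uncertain, while their sum depends less on it. The copies had between 99 and 11609 reads in a library, and no copy had the same values as another row of the table.

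The libraries held 7611781 to 15559218 reads, and 12820 to 14045 genes reached 1 CPM. Markers of the labelled tissue were present: all 12 oocyte and early embryo markers and all 5 markers of the 2-cell stage were listed, the first with summed levels of 12464 to 16736 CPM in LPN, 12653 to 16571 CPM in EPN and 12049 to 13660 CPM in SPN. The 2-cell markers were Zscan4d, Zfp352, Tcstv3, Usp17lb and Eif1ad7, the last of which is itself a copy. They summed to 3963 to 6333 CPM in LPN, 3293 to 4708 CPM in EPN and 1275 to 2728 CPM in SPN. Both transfer groups thus lay above SPN for this list, which is not independent of the copies. Its part in the results was not tested. Of 10 cumulus and granulosa markers, 6 were listed and summed to 26.1 to 36.4 CPM in LPN, 21.8 to 49.8 CPM in EPN and 29.3 to 40.5 CPM in SPN, with Foxl2 at 0 throughout. Of 6 sperm markers, 4 were listed, with sums of 3.55 to 6.62 CPM in LPN, 1.8 to 6.95 CPM in EPN and 6.02 to 12.3 CPM in SPN. Of 6 blood markers, 2 were listed, with sums of 9.32 to 26.1 CPM in LPN, 33.9 to 79.8 CPM in EPN and 36.0 to 100.4 CPM in SPN, and the part of these in the results was not tested. The library SPN A stood apart from its group. Across 14876 genes, the SD of its log2 difference from the EPN libraries averaged 0.91, against 1.05 from the other SPN libraries, while SPN B and SPN C averaged 0.988 and 0.996 from the other SPN libraries, against 1.07 and 1.10 from EPN.

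The summed level of the family was higher after both transfers than after the sham procedure. It was 1587, 3152 and 2873 CPM in LPN A, B and C. The EPN libraries had 1437, 2310 and 1340 CPM, and SPN A, B and C had 936, 1002 and 682 CPM. Every LPN and every EPN library lay above every SPN library, while LPN and EPN overlapped. Means were 2537 ± 835 CPM in LPN, 1696 ± 534 CPM in EPN and 873 ± 169 CPM in SPN (SD, n = 3 each), which is 2.82-fold for LPN against SPN, 1.91-fold for EPN against SPN and 1.48-fold for LPN against EPN, each from the mean log2(CPM + 1). No p is given for the sum, since its members were chosen with results of these data known. In terms of all reads, the copies took 0.159% to 0.315% of a library in LPN, 0.134% to 0.231% in EPN and 0.0682% to 0.1% in SPN.

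**Figure D1:**
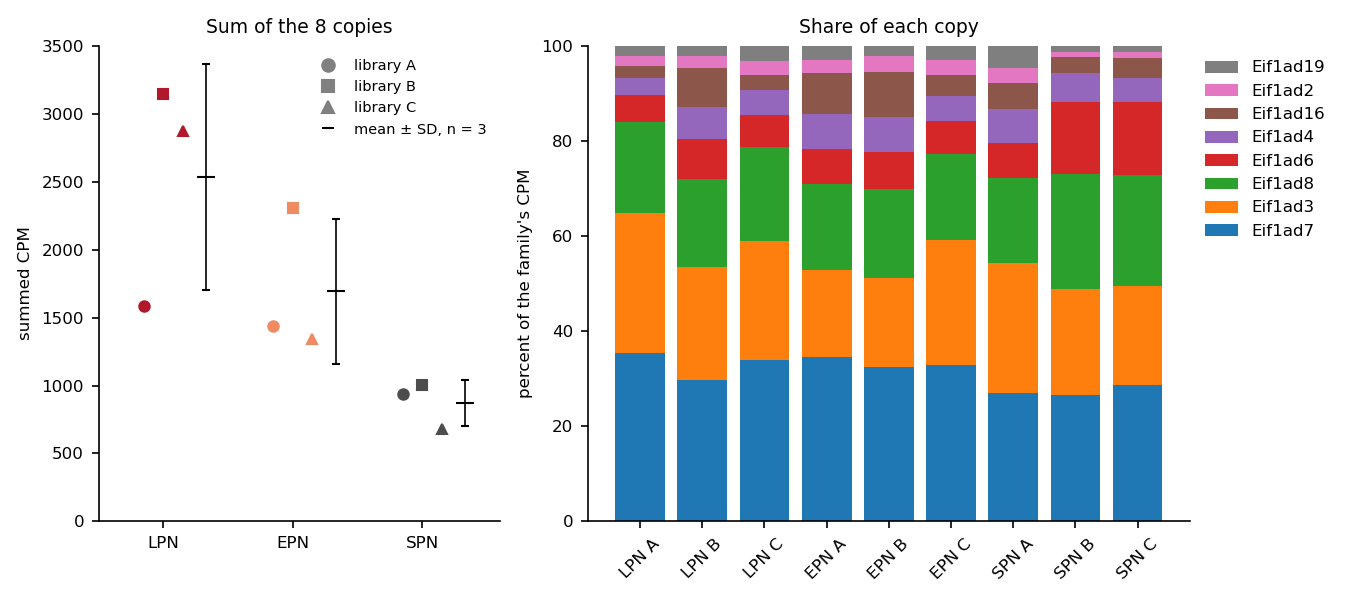
Left, CPM summed over the 8 copies in each library of LPN, EPN and SPN (points, by library letter) with the mean and SD of 3 libraries; right, the percentage of that sum held by each copy in each of the 9 libraries. The SPN sums lie between 682 and 1002 CPM, under all EPN and LPN sums, and Eif1ad7, Eif1ad3 and Eif1ad8 hold most of the sum in every library.

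Within a group, the copies often had the same high and low libraries. LPN A was the lowest LPN library for all 8 copies, and EPN B the highest EPN library for all 8. LPN B was the highest LPN library for 6 copies, and SPN C the lowest SPN library for 7. Similar copies may share reads, so these are not 8 separate observations. How often all genes had the same order was not counted. LPN A was also the deepest library of its group, with 15559218 reads, against 7611781 in LPN B and 11936503 in LPN C, and the part of depth in this order was not tested.

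The first question was how the copies differ after late transfer and after the sham procedure. Of the 8 copies, 6 rose in LPN, namely Eif1ad2, Eif1ad3, Eif1ad7, Eif1ad8, Eif1ad16 and Eif1ad19, and none fell (limma on log2(CPM + 1), Benjamini-Hochberg adjusted p under 0.05 over 14876 genes). Among all genes tested, 3.26% were called higher and 5.54% lower in LPN, which is 485 and 824 genes, and with median-of-ratios scaling 663 and 541. The median change of the 8 copies was 1.53 on the log2 scale, against -0.17 for all genes, and the copies ranged from 0.70 to 2.06. Relative to all genes the median was 1.70, and 1.73 with median-of-ratios scaling, which moved the median of all genes to -0.03. Without SPN A the count was 7 of 8, when 6.59% of all genes were higher. It was 2 of 8 without LPN B, when 0.491% were higher, and 2 of 8 without SPN C, when 0.269% were, in both cases Eif1ad3 and Eif1ad7. With no filter on low values it was 0 of 8, when 0.145% of all genes were higher. A raw limma p under 0.05 was then found for 5 copies, and for 4163 of all 19359 genes. With edgeR the count was 4 of 8, when 1.3% were higher.

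Eif1ad7 had the smallest p-value of the copies. Its level was 563, 937 and 973 CPM in LPN A, B and C, against 253, 265 and 195 CPM in SPN A, B and C. The lowest LPN library was above the highest SPN library, with a wide gap between the groups. The change was 3.39-fold (log2 change 1.76, SE 0.28, limma adjusted p = 0.000985).

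Eif1ad3 followed with 464, 748 and 718 CPM in LPN A, B and C, against 255, 224 and 142 CPM in SPN A, B and C. Here too the groups did not overlap, and LPN A was the low library of its group. The change was 3.12-fold (log2 change 1.64, SE 0.29, limma adjusted p = 0.00191).

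Eif1ad8, the remaining abundant copy, had 306, 582 and 569 CPM in LPN A, B and C, against 168, 242 and 158 CPM in SPN A, B and C. Its groups did not overlap. It rose 2.49-fold (log2 change 1.32, SE 0.30, limma adjusted p = 0.00898).

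The copies with fewer reads were less even. Eif1ad2 had 33.7, 84.5 and 81.7 CPM in LPN A, B and C, against 29.3, 10.5 and 8.66 CPM in SPN A, B and C, the widest range of the family at 9.75-fold over the 9 libraries. LPN A and SPN A lay close to each other, but the groups stayed apart. Its change was 4.17-fold (log2 change 2.06, SE 0.44, limma adjusted p = 0.00567).

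Eif1ad19 had 36.1, 67.7 and 95.4 CPM in LPN A, B and C, against 44.6, 14.4 and 9.97 CPM in SPN A, B and C, so that SPN A lay above LPN A and the groups overlapped. Its change was 3.17-fold (log2 change 1.67, SE 0.44, limma adjusted p = 0.0197). It was not called in 6 of 20 alternatives, edgeR among them (adjusted p = 0.0950), and the log2 change was 2.27 without SPN A and 1.24 without SPN C (limma adjusted p = 0.000886 and 0.167).

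Eif1ad16 had 40.2, 253.9 and 88.9 CPM in LPN A, B and C, against 50.6, 32.3 and 27.9 CPM in SPN A, B and C. Again SPN A lay above LPN A. Its change was 2.67-fold (log2 change 1.41, SE 0.46), its limma adjusted p = 0.0495 lay at the threshold, and it was not called in 14 of 20 alternatives. Without LPN B its log2 change was 0.73 (limma adjusted p = 0.382).

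Eif1ad4 and Eif1ad6 did not pass. Eif1ad4 had 53.7, 215.5 and 151.6 CPM in LPN A, B and C, against 67.4, 62.7 and 35.1 CPM in SPN A, B and C (log2 change 1.17, 95% interval 0.36 to 1.99, limma adjusted p = 0.0585). Its log2 change was 1.75 without LPN A (limma adjusted p = 0.0125), 0.76 without LPN B (limma adjusted p = 0.330) and 0.88 without SPN C (limma adjusted p = 0.284). Eif1ad6 had 90.2, 263.7 and 196.2 CPM in LPN A, B and C, against 67.8, 150.6 and 104.7 CPM in SPN A, B and C (log2 change 0.70, 95% interval -0.03 to 1.44, limma adjusted p = 0.204). For both, LPN A lay inside the range of the SPN libraries.

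Of the 8 copies, 4 had every LPN library above every SPN library (Eif1ad2, Eif1ad3, Eif1ad7 and Eif1ad8), as had 11.3% of all genes tested. In the other 4 copies it was LPN A that lay inside or below the SPN range.

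**Figure D2:**
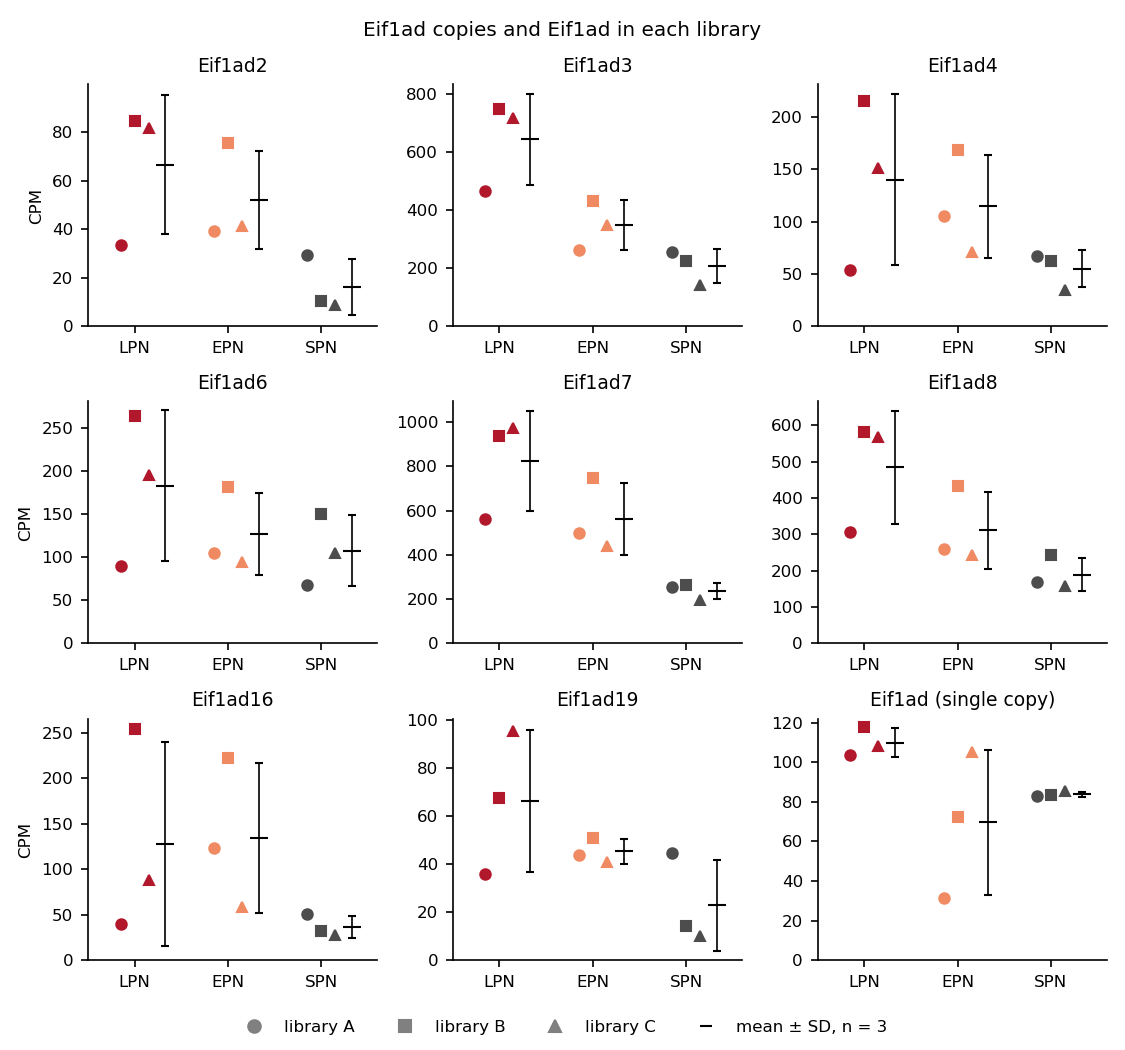
CPM of each of the 8 copies and of single-copy Eif1ad in the libraries of LPN, EPN and SPN (points, by library letter), with the mean and SD of 3 libraries beside them; each panel has its own axis from 0. LPN A is the lowest LPN point and EPN B the highest EPN point in all 8 panels of the copies, and the 3 SPN points of Eif1ad lie between 82.9 and 85.2 CPM.

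EPN was set against the same SPN libraries, so both comparisons share their controls. All 8 copies had a positive difference in EPN, with a median log2 change of 1.11, against -0.07 for all genes. An unadjusted limma p under 0.05 was found for 7 of them, and for 1643 of the 14876 genes tested. None of the 8 passed over all genes by limma. The background was low as well, at 0.0739% of genes called higher and 0.0336% lower in EPN, which is 11 and 5 genes, and with median-of-ratios scaling 3 and 0. Without SPN A, 3 of the 8 copies were called higher (Eif1ad2, Eif1ad7 and Eif1ad19), when 273 of 14876 genes were called higher. With edgeR on the recovered reads none was called. A raw edgeR p under 0.05 was found for 6 copies, and for 1304 of 14876 genes. DESeq2 called Eif1ad7, when it called 0.434% of genes tested higher.

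Eif1ad7 had 498, 747 and 441 CPM in EPN A, B and C, all above the highest SPN value of 265 CPM (log2 change 1.21, SE 0.28, limma adjusted p = 0.0858). Eif1ad2 had 39.5, 75.5 and 41.5 CPM in EPN A, B and C, above the highest SPN value of 29.3 CPM (log2 change 1.76, SE 0.44, limma adjusted p = 0.103). Eif1ad16 had 123.9, 221.9 and 58.7 CPM in EPN A, B and C, and the last of these lay just above the 50.6 CPM of SPN A (log2 change 1.69, SE 0.46, limma adjusted p = 0.135). These were the copies with the smallest p-values in this comparison.

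For the other copies, at least 1 EPN library lay near or inside the SPN range. Eif1ad3 had 262, 433 and 350 CPM in EPN A, B and C, with EPN A near the 255 CPM of SPN A (log2 change 0.76, limma adjusted p = 0.321). Eif1ad4 had 105.7, 168.1 and 70.6 CPM (log2 change 1.01, limma adjusted p = 0.339), and EPN C lay next to the 67.4 CPM of SPN A. Eif1ad19, at 43.9, 51.1 and 41.1 CPM, was even within EPN, and SPN A at 44.6 CPM lay inside this range (log2 change 1.23, limma adjusted p = 0.287).

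Eif1ad8, at 259, 432 and 242 CPM in EPN A, B and C, overlapped SPN narrowly, with EPN C at 242.19 CPM and SPN B at 242.22 CPM (log2 change 0.69, limma adjusted p = 0.395). Eif1ad6 had the smallest difference, with 105.3, 181.2 and 94.8 CPM in EPN A, B and C, inside or above the SPN range of 67.8 to 150.6 CPM (log2 change 0.25, 95% interval -0.48 to 0.98, limma adjusted p = 0.835). In total 5 of the 8 copies had every EPN library above every SPN library, against 7.07% of all genes tested.

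The transfers were also compared with each other, to ask whether their timing matters. The order of the mean levels was LPN, EPN, SPN for 7 of the 8 copies, with Eif1ad16 at 128 ± 112 CPM in LPN and 135 ± 82.2 CPM in EPN (SD, n = 3 each) as the exception. The share of all genes with this order was not counted. No copy passed by limma in LPN against EPN. There 0.692% of genes were called higher and 0.84% lower in LPN (103 and 125 genes, and 127 and 53 with median-of-ratios scaling). An unadjusted limma p under 0.05 was found for 2 of the 8 copies, and for 2872 of 14876 genes tested. Eif1ad3 came closest, at 643 ± 156 CPM in LPN and 348 ± 85.2 CPM in EPN (SD, n = 3 each; log2 change 0.88, 95% interval 0.29 to 1.48, limma adjusted p = 0.0994). It was the only copy whose LPN libraries all exceeded its EPN libraries, as did those of 11.3% of all genes. It was called with DESeq2, where 6.33% of genes tested were higher, and without SPN A, where 2.08% were. With edgeR no copy was called (0.0941% of genes higher). There 1 copy had a raw edgeR p under 0.05, as had 2584 of 14876 genes. For Eif1ad7 the difference was 0.55 on the log2 scale (95% interval -0.03 to 1.13, limma adjusted p = 0.289). The F test over the 3 groups called 6 of the 8 copies, all but Eif1ad4 and Eif1ad6, against 5.73% of all genes.

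**Figure D3:**
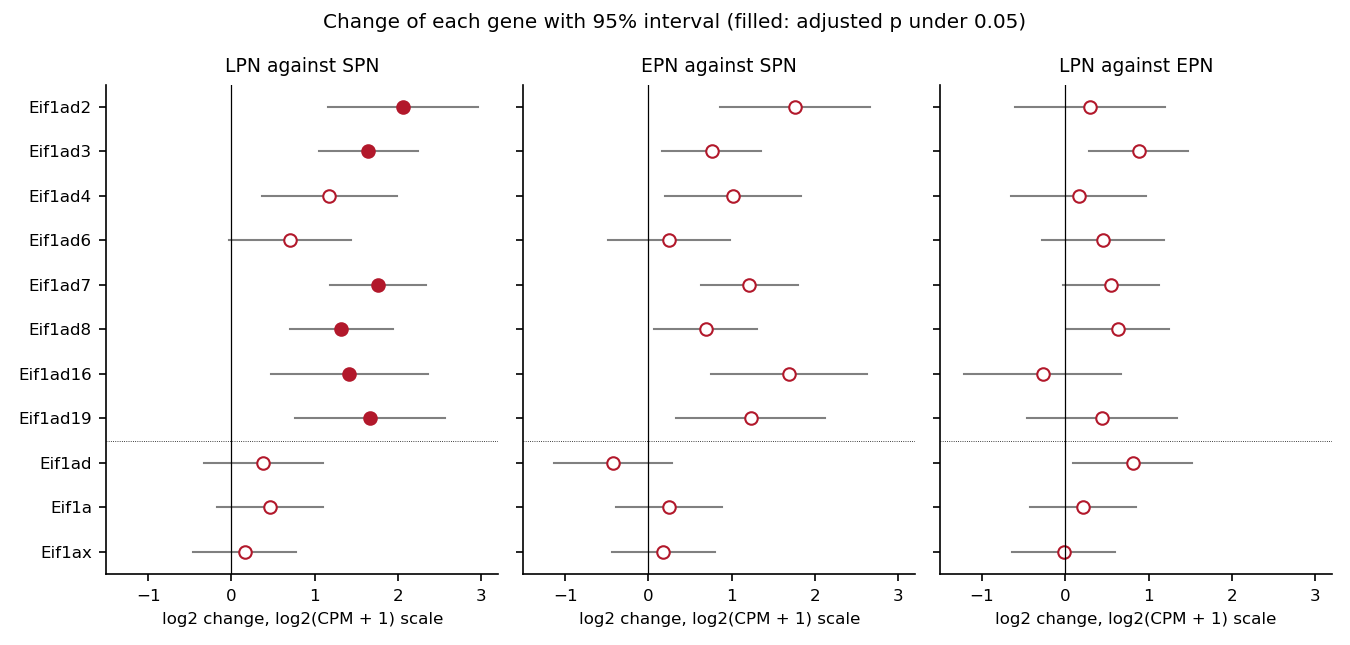
Log2 change of the 8 copies (above the dotted line) and of Eif1ad, Eif1a and Eif1ax (below it) in LPN against SPN, EPN against SPN and LPN against EPN, with 95% intervals from the limma fit; filled points have an adjusted p under 0.05. In LPN against SPN, 6 copies are filled, and no point is filled in the other comparisons or for the 3 single-copy genes.

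The single-copy gene Eif1ad did not pass in any comparison. It had 103, 118 and 108 CPM in LPN A, B and C, 31.6, 72.1 and 105.0 CPM in EPN A, B and C, and 82.9, 83.2 and 85.2 CPM in SPN A, B and C. The SPN libraries were nearly level, the LPN libraries lay a little above them, and the EPN libraries spread on both sides. The log2 change was 0.38 in LPN against SPN (95% interval -0.33 to 1.09, limma adjusted p = 0.503) and -0.42 in EPN against SPN (95% interval -1.13 to 0.29, limma adjusted p = 0.684). In LPN against EPN it was 0.81 (95% interval 0.10 to 1.52, limma adjusted p = 0.199). This was above the change of every copy except Eif1ad3 (0.88), with Eif1ad8 at 0.63 and Eif1ad7 at 0.55.

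Within a library, the ratio of a copy to Eif1ad does not depend on how libraries are scaled, apart from the pseudocount. The log2 ratio of Eif1ad7 to Eif1ad was 2.86 ± 0.38 in LPN and 1.48 ± 0.26 in SPN (SD, n = 3 each). The ratios to Eif1ad of Eif1ad3, Eif1ad7 and Eif1ad8 had every LPN library above every SPN library, and those of Eif1ad2, Eif1ad3 and Eif1ad7 every EPN library above every SPN library (exact permutation p = 0.1 each, two-sided, the smallest that 3 against 3 libraries can give). Over all 24 such tests the smallest adjusted p was 0.4, and this test cannot reach 0.05 with 3 libraries a group. No other test of the ratios was run. The share of all genes whose ratio to Eif1ad was apart in the same way was not computed, so these counts have no background. In LPN against EPN no ratio was apart.

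The genes of eIF1A itself were measured too. Eif1a was at 158 ± 16.2 CPM in LPN, 136 ± 11.8 CPM in EPN and 123 ± 54.8 CPM in SPN, and Eif1ax at 159 ± 51.7 CPM in LPN, 155 ± 12.3 CPM in EPN and 139 ± 29.7 CPM in SPN (SD, n = 3 each). In LPN against SPN the log2 change was 0.46 for Eif1a (95% interval -0.18 to 1.10) and 0.16 for Eif1ax (95% interval -0.46 to 0.78), and neither passed in any of the 3 comparisons.

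A wider list held 38 initiation factors and related genes, Eif1ad, Eif1a and Eif1ax among them. Of the 38, 6 rose and none fell in LPN against SPN, which is to be read beside 3.26% of all genes higher and 5.54% lower. Their median log2 change was 0.40, against -0.17 for all genes. Eif2s1, the alpha subunit of the factor that carries initiator tRNA, was at 740 ± 119 CPM in LPN and 377 ± 86.0 CPM in SPN (1.98-fold, limma adjusted p = 0.0254). Eif3e and Eif3m, subunits of the scaffold complex eIF3, rose 2.19-fold and 2.11-fold, and Mcts1, whose protein acts with Denr in recycling and re-initiation, rose 2.97-fold. In EPN against SPN none of the 38 passed by limma. A raw limma p under 0.05 was found for 4 of them, and for 1643 of 14876 genes tested. Eif3j2 (59.7 ± 9.63 CPM in EPN and 165 ± 44.1 CPM in SPN, limma adjusted p = 0.0648) and Eif3a (591 ± 53.0 CPM in EPN and 291 ± 26.4 CPM in SPN, limma adjusted p = 0.109) had the smallest p-values (SD, n = 3 each). In LPN against EPN, where 0.692% of all genes were higher, Eif2s1 was the single member that rose, and with median-of-ratios scaling none did.

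Among other multi-copy families of the 2-cell stage, 4 of 23 members rose in LPN against SPN and none fell, where 3.26% of all genes were higher and 5.54% lower. Their median log2 change was 0.73, against 1.53 for the Eif1ad copies and -0.17 for all genes. The deubiquitinase gene Usp17lb was at 1741 ± 532 CPM in LPN and 607 ± 400 CPM in SPN, and Tcstv3 at 942 ± 250 CPM in LPN and 348 ± 57.8 CPM in SPN (SD, n = 3 each). Tdpoz8 and Tdpoz4 rose 2.82-fold and 2.24-fold. In EPN against SPN, where 0.0739% of all genes were higher, 1 of 23 members rose, Tdpoz8 at 222 ± 34.7 CPM in EPN and 68.9 ± 38.8 CPM in SPN, and the median was 0.67, against -0.07 for all genes. With median-of-ratios scaling none was called. In LPN against EPN none passed by limma, with Tcstv3 (log2 change 1.03, limma adjusted p = 0.0662) and Usp17le (log2 change -1.30, limma adjusted p = 0.141) closest. A raw limma p under 0.05 was found there for 4 of the 23, and for 2872 of 14876 genes tested. In these comparisons no difference between the families was tested.

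A list of 20 other genes described at the 2-cell stage holds Dux, Duxf3, Dub1 and Dub1a, and was not checked for copy number. Of the 20, 15 were in the expression table and 13 passed the filter. Among these 13, 2 rose in LPN against SPN and none fell, where 3.26% of all genes were higher and 5.54% lower. Their median log2 change was 0.10, against -0.17 for all genes. They were Zfp352, a zinc finger gene, at 813 ± 236 CPM in LPN and 379 ± 156 CPM in SPN, and Dppa2, a developmental pluripotency gene, at 515 ± 46.9 CPM in LPN and 270 ± 107 CPM in SPN (SD, n = 3 each). None passed by limma in EPN against SPN, where Zfp352 (log2 change 0.86, limma adjusted p = 0.253) and Arg2 (log2 change 0.66, limma adjusted p = 0.464) came first. A raw limma p under 0.05 was found there for 1 member, and for 1643 of 14876 genes tested. None passed in LPN against EPN, where Dppa2 (log2 change 0.85, limma adjusted p = 0.123) and Rxra (log2 change -1.80, limma adjusted p = 0.146) came first. In that comparison 3 members had a raw limma p under 0.05, as had 2872 of 14876 genes.

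The split of the family's reads between copies differed between libraries. Eif1ad7 held 29.7% to 35.5% of the family's CPM in LPN, 32.3% to 34.6% in EPN and 26.5% to 28.6% in SPN. Its share in every LPN and every EPN library was above its share in every SPN library, which was not tested. These were 2 of the 24 comparisons of shares in which groups did not overlap, and they were singled out after the values were seen.

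Eif1ad3 held 26.0 ± 2.9% in LPN, 21.0 ± 4.41% in EPN and 23.5 ± 3.33% in SPN (SD, n = 3 each). Eif1ad6 set SPN A apart from its group, with 7.25% in SPN A, against 15.03% in SPN B and 15.4% in SPN C. The LPN and EPN libraries, at 5.68% to 8.37%, lay around the SPN A value. Eif1ad16 held 2.53%, 8.06% and 3.09% in LPN A, B and C, and 8.62%, 9.61% and 4.38% in EPN A, B and C. In SPN A, B and C it held 5.41%, 3.23% and 4.09%. LPN A was low for the lesser copies as a whole: Eif1ad2, Eif1ad4, Eif1ad6, Eif1ad16 and Eif1ad19 together made up 16.0% of the family's CPM there, and 21.4% to 30.2% in the 8 other libraries.

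How closely 2 copies moved together was described by the SD, over the 9 libraries, of the difference between their log2 values. It was smallest for Eif1ad7 with Eif1ad8 (0.28), Eif1ad3 with Eif1ad7 (0.28) and Eif1ad3 with Eif1ad8 (0.31), against 0.63 to 1.15 for single copies. The ratio of Eif1ad7 to Eif1ad3 still ran from 0.993 in SPN A to 1.90 in EPN A. The log2 ratio of Eif1ad7 to Eif1ad3 was 0.35 ± 0.08 in LPN, 0.68 ± 0.31 in EPN and 0.23 ± 0.23 in SPN (SD, n = 3 each). The exact permutation p was 0.5 in LPN against SPN and 0.2 in both EPN against SPN and LPN against EPN (two-sided), and the smallest adjusted p over the 3 comparisons was 0.3. Next came Eif1ad2 with Eif1ad19 (0.35), Eif1ad6 with Eif1ad8 (0.37), Eif1ad4 with Eif1ad8 (0.42), Eif1ad4 with Eif1ad7 (0.45) and Eif1ad4 with Eif1ad16 (0.46), and the largest value was that of Eif1ad2 with Eif1ad6 (1.01). The part of reads shared between similar copies in these values was not tested.

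**Figure D4:**
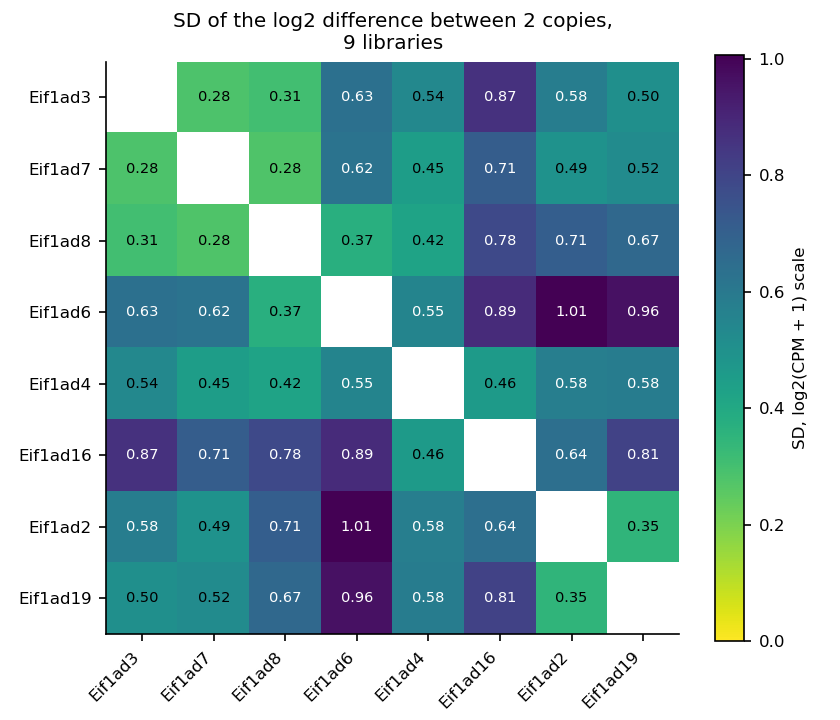
SD over the 9 libraries of the difference in log2(CPM + 1) between every 2 copies (colour and printed value; smaller means a steadier ratio). Eif1ad3, Eif1ad7 and Eif1ad8 have values of 0.28 to 0.31 with each other, Eif1ad2 and Eif1ad19 have 0.35, and Eif1ad2 with Eif1ad6 has 1.01.

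The same measure was used to find the genes outside the family most like each copy, among 9810 genes whose mean reached 5 CPM. Predicted genes, known only by a Gm, Rik, LOC or clone symbol, were skipped, so nearest means nearest among the others. The 40 places, 5 for each copy, were held by 32 genes. Of these genes, 5 were in the list of other multi-copy 2-cell families, which has 23 members among the 14876 genes tested, and they held 7 places. How many of the 23 were among the 9810 candidates was not counted, so these numbers have no background. That list does not hold Zscan4-ps3, the third nearest to Eif1ad16 (0.57). Usp17lb was nearest to Eif1ad19 (SD 0.26, against 0.99 for Eif1ad19 itself) and the fifth nearest to Eif1ad2 (0.42), where Zfp353-ps was nearest (0.35). Eif1ad4 and Eif1ad16 both had Zscan4c, a 2-cell zinc finger gene, as the nearest gene (0.36 and 0.51), and Zscan4d was next for Eif1ad4 (0.36) and Zscan4e for Eif1ad16 (0.55).

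For the copies with the most reads, the nearest genes left after this skipping were of other kinds. Ogdh, which encodes a subunit of the oxoglutarate dehydrogenase of the TCA cycle, was nearest to Eif1ad3 (SD 0.20, against 0.79 for Eif1ad3 itself), with Tdpoz5 at 0.24. Ogdh had 267 ± 51.8 CPM in LPN, 145 ± 40.9 CPM in EPN and 95.9 ± 20.5 CPM in SPN (SD, n = 3 each). Plac9 was nearest to Eif1ad7 (0.31), and Mogat1, a monoacylglycerol acyltransferase gene, to Eif1ad8 (0.24), while Dnajc4 was nearest to Eif1ad6 (0.27). Skipped predicted genes lay nearer than these: 1 to Eif1ad3, 2 to Eif1ad7, 2 to Eif1ad8 and 0 to Eif1ad6. Their kind was not examined. The distances given describe 9 libraries that share a group structure. They were chosen as the smallest of 9810 values after predicted genes were skipped.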

How the data were processed

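The authors deposited CPM for 19359 genes in 9 libraries. Per the labels' protocols, poly(A) RNA was amplified with Smart-seq2 v4, made into Nextera XT libraries and read as 150-bp paired ends. Trim Galore 0.6.7, HISAT2 2.2.1, R 3.3.3, edgeR and GRCm39 are named in the submitters' processing notes; the counter, annotation and treatment of multi-mapping reads are not given in the sources used here.

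Divided by the value of 1 read, 100% of the deposited CPM of each library came out whole within 0.01 reads, which gave back read counts; 3.66% to 5.68% of each library's reads lay outside the table. A read was worth 0.0643 to 0.131 CPM. The precision of the copies is set by the libraries, since counting error was at most 10.1% of a copy's value; PCR reads are not independent molecules, so this covers counting error only.

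The 14876 genes that reached 1 CPM in 3 or more libraries were tested with limma 3.58.1 in R 4.3.3 on log2(CPM + 1), without further scaling: 1 two-sided fit of all 9 libraries with trended empirical Bayes (residual degrees of freedom 6, prior 25.9), Benjamini-Hochberg adjustment over all genes, called at 0.05. Folds come from log2(CPM + 1), which understates changes of low genes. Ratios to Eif1ad had exact permutation tests, two-sided; 6 had been planned, for the copies known then, and 24 were run, for all 8. The same fit was run on simulated counts with 200 raised genes and no other difference between groups. Its outcome is not given here and is not used as support. Alternatives were other pseudocounts, filters, scalings and weights, fits of 6 libraries, a replicate block, edgeR 4.0.16, DESeq2 1.42.0 and leaving out each library.

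The members, lists and tests were chosen with earlier results of these data known. Named besides the copies, Eif1ad, Eif1a and Eif1ax were the 5 genes nearest to each copy (predicted genes skipped), from which the nearest and those of 2-cell families are given, and from each list up to 4 called members by smallest adjusted p, or the 2 of smallest p. The available RefSeq and GENCODE tables, of an older assembly, matched Eif1ad and none of the 8 copies by symbol, so no coordinates or sequences are given.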

Additional observations from a re-analysis of the deposited data

How the results depend on the processing

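Every log2 change of the 8 copies in LPN against SPN and of the family sum in the 3 comparisons kept its direction under all 20 alternatives, of which 7 leave the estimate of the sum as it is by construction and 13 can move it. The sum ran from 1.31 to 1.80 in LPN against SPN, 0.69 to 1.08 in EPN against SPN and 0.38 to 0.87 in LPN against EPN. Of the 8 copies, 6 were called higher in LPN against SPN. By limma with no filter on low values the count was 0. An unadjusted limma p under 0.05 was then found for 5 copies, and for 4163 of 19359 genes. The limma adjusted p was 0.0502 for Eif1ad7 and 0.056 for Eif1ad3, the single setting in which these copies were not called. The count ran from 2 to 7 when leaving out a library (0.269% to 6.59% of genes tested higher), and edgeR called 4 (1.3% higher). In EPN against SPN the count was 3 with array quality weights (1.36% of genes tested higher) and 1 with DESeq2 (0.434%). Leaving out a library gave 0 to 3 there (0% to 1.84%). In LPN against EPN the count was 1 with DESeq2 (6.33%) and 0 to 1 when leaving out a library (0.0134% to 2.08%). With the library letter as a replicate block it was 7 in LPN against SPN (4.17% higher). It was 1 in EPN against SPN (Eif1ad7; 0.108% higher) and 0 in LPN against EPN (1.39% higher). The labels do not say what the letters mark. Deviations of same-letter libraries from their group means correlated at -0.02 to 0.09 in 9 pairs, none over 0.1. The same letter correlated best in 11 of 18 cases, more than an even spread over 3 letters would give. These cases reuse the same libraries and correlations, so they are not independent, and the count was not tested. Whether the letters pair the libraries was therefore not settled, and the main fit did not use them. With the block, calls over all genes rose from 1309 to 1644 for LPN against SPN. They rose from 16 to 25 for EPN against SPN, and from 228 to 480 for LPN against EPN.

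Directions turned for small differences. In LPN against EPN, Eif1ad16 was at 0.0376 with edgeR and 0.093 with DESeq2, and -0.96 to 0.35 when leaving out a library, and Eif1ad4 at -0.068 with array quality weights and -0.25 to 0.74 when leaving out a library. In EPN against SPN, leaving out a library gave -0.043 to 0.53 for Eif1ad6 and -0.80 to 0.055 for Eif1ad. In LPN against EPN the log2 ratio to Eif1ad then ran from -0.28 to 0.36 for Eif1ad3, -0.91 to 0.047 for Eif1ad6, -0.79 to 0.15 for Eif1ad7, -0.70 to 0.20 for Eif1ad8 and -0.81 to 0.090 for Eif1ad19. For Eif1ad7 to Eif1ad3 in LPN against SPN it ran from -0.0024 to 0.23. The cause of these changes was not tested.

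Over all genes, LPN against SPN had 1309 calls by limma, 477 with edgeR, 1890 with DESeq2, 74 with no filter, 659 with 6 libraries, 2731 with weights and 96 to 2733 when leaving out a library. EPN against SPN had 16, and 0 with edgeR (1304 at an unadjusted p under 0.05), 116 with DESeq2 and 0 to 451 when leaving out a library. LPN against EPN had 228, and 17, 937 and 4 to 762 for the same settings. Median-of-ratios scaling moved the calls in LPN against SPN to 663 higher and 541 lower, from 485 and 824, and those in LPN against EPN to 127 higher and 53 lower, from 103 and 125, while 5 copies stayed called higher in LPN against SPN and the median change of all genes became -0.03.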
